A study of Mus musculus with 19 samples.

Results

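The conjugation enzymes described here are the UDP-glucuronosyltransferases (Ugt1, Ugt2 and Ugt3), the glutathione S-transferases (Gsta, Gstm, Gstp, Gstt, Gstk, Gsto, Gstz and the microsomal Mgst) and the sulfotransferases (Sult) of the mouse. Members were chosen by the start of their gene symbol, without pseudogenes named -ps. The embryo table held 37 of them among 13549 genes. The tumour files held 49 among 17606 genes, of which 40 had a mean of at least 1 CPM (reads scaled to a total of 1000000 per library). In all 43 genes counted as members in either table by these limits, and 34 in both.

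The series profiled RNA in 2 mouse models of fibrolamellar carcinoma. This cancer of the liver carries a fusion of DNAJB1 with PRKACA, the gene of a catalytic subunit of protein kinase A (PKA). Whole livers were taken at embryonic day 18.5 from 5 embryos labelled control and 4 labelled DNAJ1B-PKA_Overexpression, called control 1 to 5 and fusion 6 to 9 here. In the fusion embryos a DNAJB1-PRKACA cDNA with GFP stood in the Rosa26 locus behind a stop cassette (Rosa26 LSL-DNAJB1-PKA-GFP), and Alb-Cre, a Cre recombinase under the albumin promoter, removed that cassette from mid-gestation in the liver. Which of these alleles the controls carried is not given in the labels. The tumours grew from FL8, a single mouse cell line of these models, set in methacrylated gelatin capsules in the flanks of NSG mice, an immunodeficient strain. Once tumours averaged 75 mm3, mice were randomized to the methocel carrier (vehicle 1 to 5) or to palbociclib, which blocks the cell cycle kinases CDK4 and CDK6. It was given by oral gavage at 75 mg/kg for 3 days and was followed by 4 days off the drug (palbociclib 1 to 5). The sample labels name methocel as the carrier, while the series description calls the control tumours PBS, and the labels were followed. The labels name no shared litter or batch, and p-values measure the spread between these livers or tumours.

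Conjugation makes lipophilic compounds soluble enough to leave the hepatocyte. Ugt enzymes sit in the endoplasmic reticulum and transfer glucuronic acid from UDP-glucuronate to bilirubin, steroids, bile acids and drugs. Gst enzymes attach glutathione to electrophiles, and Sult enzymes move sulfate from the donor PAPS onto phenols, steroids and bile acids. In the liver many of these genes are expressed at low levels before birth and rise afterwards, under nuclear receptors such as CAR and PXR, hepatocyte factors such as HNF1, HNF4 and C/EBP, and the oxidative stress factor Nrf2.

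The genes lie in clusters, and this bears on what reads can tell apart. In GENCODE M21 (GRCm38, the mm10 build of the submitters' notes) the 7 Gstm genes lie on chromosome 3 at 107895821 to 108044894, the Ugt2 genes beside Sult1b1, Sult1d1 and Sult1e1 on chromosome 5 at 86889767 to 87591594, and the Ugt1a genes on chromosome 1 at 88070800 to 88220002. Each Ugt1a gene has its own first exon and shares the rest: 82.7% of the exonic bases of Ugt1a1 also belong to other genes, which leaves 385 bases of its own, and 59.9% of those of Ugt1a9. The coding sequences of Ugt1a1 and Ugt1a9 end in the same 737 bases. Gstp1 and Gstp2, neighbours on chromosome 19, have coding sequences of 630 bases that match at 618 and differ at 12. The opening 180 bases of both coding sequences are shown because they let a reader see how few positions can assign a read, with the 6 differing positions in capitals.
Gstp1: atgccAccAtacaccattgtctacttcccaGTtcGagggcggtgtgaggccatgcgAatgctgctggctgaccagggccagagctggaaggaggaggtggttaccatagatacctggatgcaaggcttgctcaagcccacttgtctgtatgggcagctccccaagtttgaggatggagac
Gstp2: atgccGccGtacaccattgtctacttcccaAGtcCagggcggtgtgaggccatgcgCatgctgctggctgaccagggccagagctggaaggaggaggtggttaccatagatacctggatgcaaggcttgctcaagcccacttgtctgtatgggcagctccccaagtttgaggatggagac
Among the 50-base words of Gstp2 transcripts 54.3% also occur in other genes, and in Gstp1 33.7%. The share was 41.7% in Ugt2b5, mostly with Ugt2b38, 79.8% in Ugt1a6b, 90.5% in Gsta1 and 49.8% in Gsta2. How shared reads were counted is not given in the sources used here, so the values of these genes are uncertain. It is also not given whether counting used strand, and 13.6% of the exonic bases of Gstt3 and 13.9% of those of Gstm5 overlap another gene.

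RefSeq (GRCm38.p6) gave promoters for 44 of the 50 symbols that match the rule in either table, 56 promoters in all, and 6 symbols had no entry: Gsta4, Gstt2, Sult2a1, Sult4a1, Ugt1a6b and Ugt3a2. The 250 bases before each start site were searched on both strands for 6 motifs, with overlaps allowed. The full cyclic AMP response element, the site of the PKA-activated factor CREB (TGACGTCA), stood in 0 of the 56 and in 1.55% of all 32851 promoters. Its core (TGACG) stood in 8.93% of the member promoters against 17.8% of all, and the antioxidant response element core, to which Nrf2 binds (TGACNNNGC), in 7.14% against 10.2%. The HNF1 core (GTTAAT) stood in 16.1% against 6.43%, the C/EBP site (TTGCNNAA) in 14.3% against 9.56%, and the HNF4 site (CAAAGTCCA) in 0 of the 56 against 0.384%. These are matches of letters, not measured binding. Windows of 4 genes are shown 5′ to 3′ on the strand of the gene, each ending at the base before the start site, with matched motifs in capitals. Gsta3 is shown as the Gsta gene that fell in fusion livers, Ugt2b5 as a Ugt2 gene that rose, and Ugt1a1 and Ugt1a9 as start sites of the same locus with different values in fusion livers.
Gsta3, chr1:21240335-21240584, plus strand: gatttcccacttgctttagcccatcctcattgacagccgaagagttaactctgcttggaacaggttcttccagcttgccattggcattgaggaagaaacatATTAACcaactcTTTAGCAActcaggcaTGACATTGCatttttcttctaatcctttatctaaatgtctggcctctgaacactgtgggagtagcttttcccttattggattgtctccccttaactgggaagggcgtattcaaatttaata
Ugt2b5, chr5:87140341-87140590, minus strand: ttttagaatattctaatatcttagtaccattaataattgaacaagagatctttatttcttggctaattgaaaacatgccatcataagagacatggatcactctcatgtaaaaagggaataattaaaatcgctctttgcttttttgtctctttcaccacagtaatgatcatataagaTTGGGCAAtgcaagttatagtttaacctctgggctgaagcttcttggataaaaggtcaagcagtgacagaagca
Ugt1a1, chr1:88211709-88211958, plus strand: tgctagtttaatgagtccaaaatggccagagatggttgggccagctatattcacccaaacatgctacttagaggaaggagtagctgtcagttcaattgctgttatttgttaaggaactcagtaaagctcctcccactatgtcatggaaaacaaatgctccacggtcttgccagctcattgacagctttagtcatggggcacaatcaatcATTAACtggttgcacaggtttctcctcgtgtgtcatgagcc
Ugt1a9, chr1:88070529-88070778, plus strand: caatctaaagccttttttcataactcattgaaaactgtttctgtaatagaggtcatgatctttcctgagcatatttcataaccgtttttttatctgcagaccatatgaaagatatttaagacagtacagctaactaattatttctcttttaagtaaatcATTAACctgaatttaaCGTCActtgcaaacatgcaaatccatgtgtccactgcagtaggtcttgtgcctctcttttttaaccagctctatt
The capitals of Gsta3 are, in order, an HNF1 core, a C/EBP site and an antioxidant response element core. Those of Ugt2b5 are a C/EBP site and those of Ugt1a1 an HNF1 core. Ugt1a9 has an HNF1 core and then the core of the cyclic AMP response element on the other strand.

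Library facts that touch the results are these. Embryo libraries held 7.66 to 45.6 M (1000000) counts. The share of counts on ribosomal protein genes was 9.68% to 10.1% in control 1, control 2, fusion 8 and fusion 9 (called batch A here) and 6.16% to 7.85% in control 3 to 5, fusion 6 and fusion 7 (batch B). No label names such a batch. Xist was high in control 1 and 2 and fusion 6 to 8 and low in the other 4 livers, so that in batch B genotype and sex cannot be told apart. Prkaca was at 36.3 to 50.5 CPM in controls and 52.0 to 114 CPM in fusion livers. The 6 measured hepatocyte markers summed to 112604 to 137906 CPM in controls and 138451 to 163626 in fusion livers, and among them Afp rose (log2 fold change 0.86) and Apoa1 fell (-0.89). Of 5 cholangiocyte markers 3 fell (Krt7, Krt19 and Epcam, log2 fold changes of -0.98, -0.91 and -1.51), and the 5 summed to 49.9 to 73.8 CPM in controls and 11.4 to 41.4 in fusion livers. The 5 macrophage markers summed to 573 to 693 CPM and 484 to 532 CPM, with 0 of 5 past the threshold. Of 6 fibroblast and stellate markers Col1a1 fell (-0.80), and the 6 summed to 189 to 328 CPM and 165 to 246 CPM. Cela1, the only marker of exocrine pancreas measured in the embryos, rose (0.72), from 27.4 to 38.1 CPM in controls to 38.3 to 70.5 CPM in fusion livers. No marker of these lists that was measured was at 0 throughout a group. The part of these shifts in the results was not tested, and in bulk liver fewer cells of a type and less RNA per cell cannot be told apart.

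The first comparison asks which conjugation enzymes change in fetal liver that expresses the fusion. Gsta3, Gstm1, Gstm2, Gstm4, Sult1a1, Ugt1a1 and Ugt3a2 fell, while Ugt2b1, Ugt2b5, Ugt2b34 and Gstt3 rose. Other abundant transferases, such as Mgst3, Mgst1, Gstt1, Gstz1 and Gstp1, did not pass. Of 37 members 34 had enough counts to be tested, and 11 passed (edgeR, adjusted p under 0.05 over 13316 genes), which is 32.4% of those tested beside 12.8% of all genes. Of these 4 were higher, where the share of all genes is 5.99%, and 7 lower, where it is 6.81%. Control and fusion livers did not overlap in 10 of the 34, 29.4% beside 16.5% of all genes: 4 were higher (8.37% of all genes) and 6 lower (8.15%). The median log2 fold change of the 34 was -0.16, against -0.01 over all genes. Without fusion 7 there were 8 calls, 4 higher and 4 lower.

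**Figure D1:**
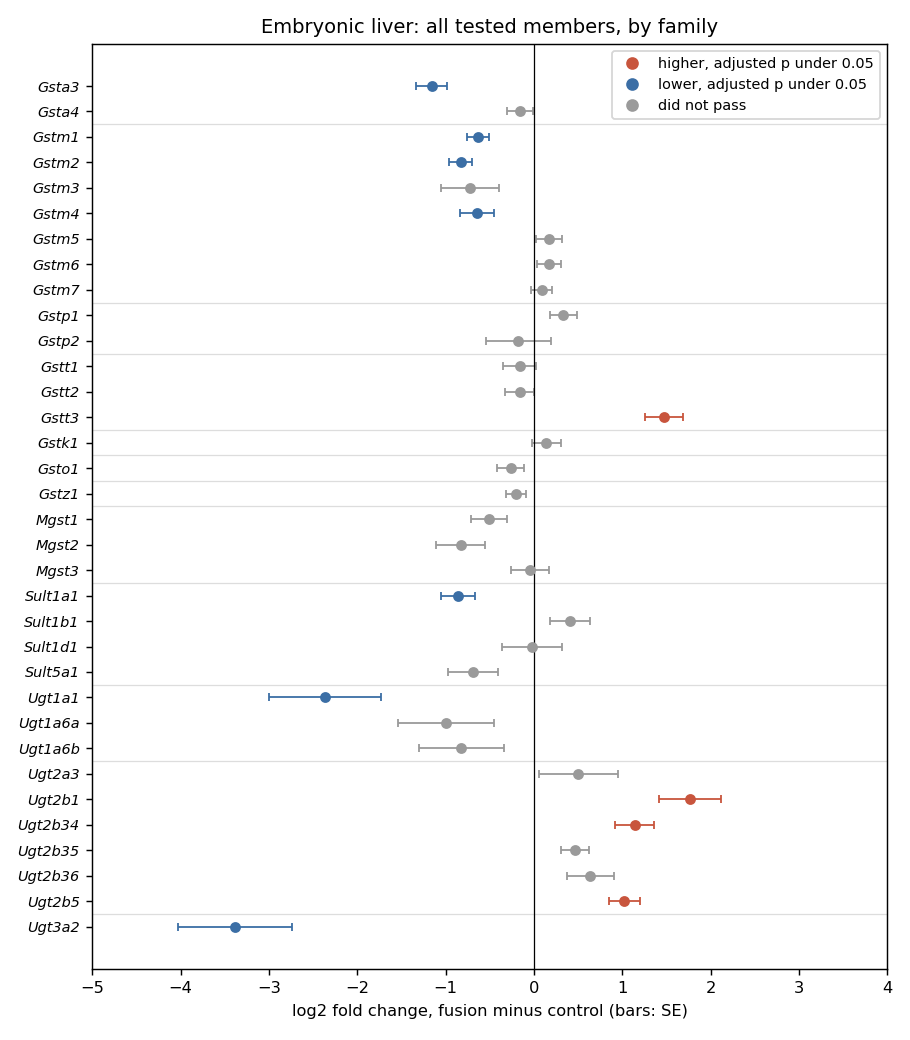
Log2 fold changes of the 34 tested members in embryonic liver (x axis, fusion minus control; points with SE bars), grouped by family on the y axis. The 6 Ugt2 genes lie right of 0, the 3 Ugt1 genes and Ugt3a2 left of it, and the Gstm genes fall on both sides.

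Gsta3, a class alpha transferase of the liver, fell. It was at 292, 374, 381, 414 and 402 CPM in control 1 to 5 and at 127, 164, 158 and 218 CPM in fusion 6 to 9. Every fusion liver lay below every control, with fusion 9 nearest to them. The mean went from 372 ± 47.9 CPM (SD, n = 5) to 167 ± 37.6 CPM (SD, n = 4), which gave a log2 ratio of -1.16 ± 0.17 (SE, with 0.00216 as the adjusted p of edgeR). The fall was -0.81 in batch A and -1.45 in batch B. Gsta4, which detoxifies lipid aldehydes such as hydroxynonenal, was at 20.98, 20.9, 30.4, 29.4 and 25.2 CPM in controls and 22.7, 26.2, 19.7 and 22.8 CPM in fusion livers. These ranges overlap and its log2 fold change was -0.16 ± 0.15 (SE, with 0.512 as the adjusted p of edgeR).

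The Gstm cluster, of class mu transferases, divided along the chromosome. Gstm2, Gstm1 and Gstm4, which are neighbours at the far end, fell, and Gstm5, Gstm7 and Gstm6 at the other end had log2 fold changes of 0.17, 0.09 and 0.17 and did not pass. Gstm3, between these groups and low at 2.20 ± 0.73 CPM (SD, n = 5) in controls, had -0.73 (edgeR adjusted p = 0.165). Gstm1, the most abundant of the cluster per kb of exon, was at 193, 183, 214, 226 and 246 CPM in control 1 to 5 and 149, 135, 125 and 140 CPM in fusion 6 to 9, with no overlap. Its log2 fold change was -0.63 ± 0.13 (SE, with 0.0091 as the adjusted p of edgeR). Gstm2 was at 15.3, 13.4, 14.2, 12.8 and 16.6 CPM in controls and 7.15, 8.48, 8.12 and 8.97 CPM in fusion livers. These groups too stood apart, with a log2 fold change of -0.83 ± 0.13 (SE, with 0.0026 as the adjusted p of edgeR). Gstm4 was at 26.0, 29.4, 18.4, 16.4 and 17.1 CPM in controls and 11.4, 13.8, 14.1 and 15.3 CPM in fusion livers. The batch A controls were its highest values, and the groups did not overlap. Its log2 fold change was -0.64 ± 0.19 (SE, with 0.0489 as the adjusted p of edgeR), and this call did not hold in 7 of 9 fits that each left out 1 liver (adjusted p up to 0.121), with control 4 and control 5 the livers whose omission kept it.

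**Figure D2:**
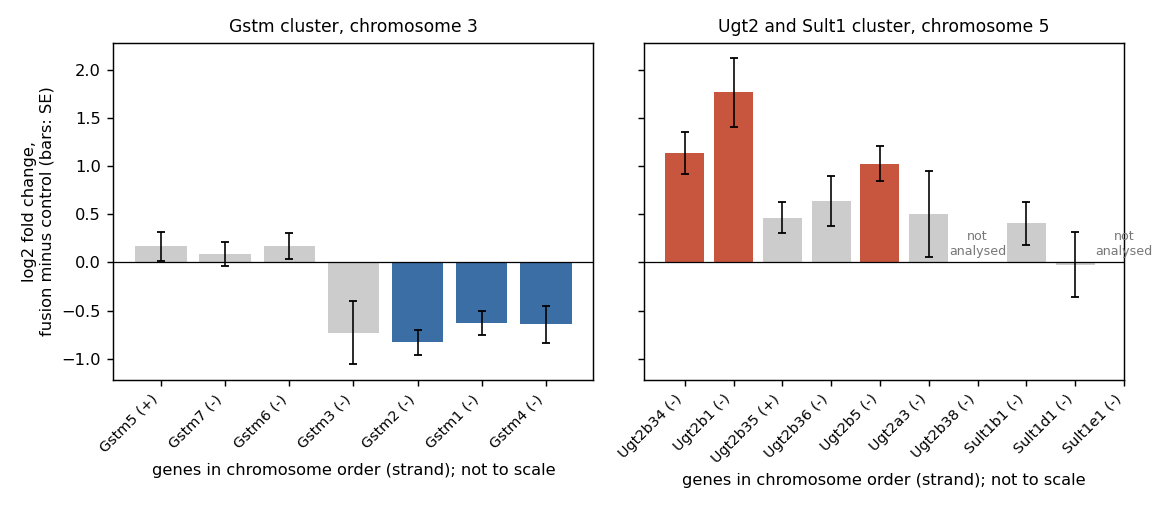
Log2 fold changes in embryonic liver (y axis, fusion minus control, with SE bars) for the genes of the Gstm cluster and of the Ugt2 and Sult1 cluster, in chromosome order on the x axis and not to scale; coloured bars passed the test and grey bars did not. The falls at Gstm2, Gstm1 and Gstm4 are neighbours, and the rises at Ugt2b34, Ugt2b1 and Ugt2b5 are interspersed with smaller positive values.

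In class theta, whose enzymes act on small halogenated compounds, Gstt3 rose while its neighbours did not pass. Gstt3 was at 15.5, 13.5, 12.3, 17.8 and 19.6 CPM in control 1 to 5 and 41.2, 54.4, 53.6 and 26.1 CPM in fusion 6 to 9. Fusion 9 was the lowest fusion liver and still above every control. The log2 fold change was 1.47 ± 0.21 (SE, with 0.00195 as the adjusted p of edgeR), 1.45 in batch A and 1.52 in batch B. Gstt1, a major theta enzyme of the liver, was at 209, 171, 169, 209 and 244 CPM in controls and 208, 226, 123 and 160.1 CPM in fusion livers, with overlapping groups and a log2 fold change of -0.16 (edgeR adjusted p = 0.614). Gstt2 also had -0.16 (edgeR adjusted p = 0.551).

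The remaining Gst classes outside Mgst gave no call in this fit. Gstp1, the class pi enzyme, was at 121, 105, 129, 150.2 and 145 CPM in controls and 182, 193, 141 and 138 CPM in fusion livers. Fusion 6 and 7 were above every control and fusion 8 and 9 were within their range (log2 fold change 0.33 ± 0.15, SE; edgeR adjusted p = 0.17). Gstp2, its near copy, was below 1.18 CPM in each embryo liver, so that few reads were assigned to it. Gstk1, a mitochondrial and peroxisomal class, was at 25.0, 22.7, 21.2, 18.8 and 18.5 CPM in controls and 16.9, 22.4, 29.6 and 24.8 CPM in fusion livers (log2 fold change 0.14; edgeR adjusted p = 0.617). Gsto1, of class omega, was at 59.4, 63.6, 74.3, 67.6 and 86.1 CPM in controls and 70.8, 57.8, 46.4 and 58.4 CPM in fusion livers (log2 fold change -0.27; edgeR adjusted p = 0.261). Gstz1, which isomerizes maleylacetoacetate in tyrosine breakdown, was at 257, 235, 249, 238 and 251 CPM in controls and 209, 242, 190 and 212 CPM in fusion livers (log2 fold change -0.21; edgeR adjusted p = 0.26). In each of these 4 genes at least 1 fusion liver lay inside the range of the controls.

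The microsomal transferases belong to another protein family that works in membranes. Mgst1 was at 171, 234, 306, 348 and 333 CPM in control 1 to 5 and 219, 217, 168 and 178 CPM in fusion 6 to 9. The batch B controls were highest and control 1 lay among the fusion livers. The log2 fold change was -0.51 ± 0.21 (SE, with 0.127 as the adjusted p of edgeR). Mgst2, from 31.8 ± 9.16 CPM (SD, n = 5) to 17.9 ± 6.21 CPM (SD, n = 4), had -0.83 ± 0.28 (SE, with 0.0686 as the adjusted p of edgeR). With the batch as a covariate Mgst2 passed at an edgeR adjusted p of 0.00104, Mgst1 at 0.0149 and Gstp1 at 0.00928, and Mgst2 passed within each batch too. Mgst3, the most abundant member per kb of exon in controls, averaged 308 ± 79.7 CPM in the controls (SD, n = 5) and 298 ± 71.1 CPM in the fusion livers (SD, n = 4).

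Among sulfotransferases, Sult1a1, which sulfates phenols, fell. It was at 216, 253, 269, 262 and 273 CPM in control 1 to 5 and 99.7, 115, 149 and 198 CPM in fusion 6 to 9. All fusion livers lay below the controls, with fusion 9 nearest to them. The log2 fold change was -0.86 ± 0.19 (SE, with 0.0152 as the adjusted p of edgeR). It was -0.42 in batch A, which did not pass (edgeR adjusted p = 0.103), and -1.32 in batch B, and without fusion 7 the adjusted p was 0.0544. Sult1b1, which sulfates thyroid hormones, was at 1.37, 1.12, 2.26, 2.05 and 1.96 CPM in controls and 2.29, 2.73, 2.22 and 2.33 CPM in fusion livers. The groups overlapped narrowly (log2 fold change 0.41; edgeR adjusted p = 0.256). Sult1d1 had -0.02 and Sult5a1 -0.69, and neither passed. Sult2a1 and Sult2a8, of the class that sulfates steroids and bile acids, had too few counts to be tested. Sult2a8 was at 0.119, 0.139, 0.893, 0.945 and 0.960 CPM in controls and 0.146, 0.297, 0.536 and 0.0684 CPM in fusion livers, which is 1 to 23 counts per library.

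The Ugt2 genes, whose enzymes glucuronidate steroids, bile acids and drugs, were higher in fusion livers. All 6 tested members had a positive log2 fold change and 3 passed. Summed over the 6, Ugt2 RNA was at 90.5 to 177 CPM in controls and 227 to 346 CPM in fusion livers. Ugt2b34 was at 47.4, 65.4, 72.2, 92.7 and 87.6 CPM in control 1 to 5 and 213, 130.3, 179.6 and 121 CPM in fusion 6 to 9. The groups did not overlap, and the log2 fold change was 1.14 ± 0.22 (SE, with 0.00732 as the adjusted p of edgeR). Ugt2b5 was at 26.6, 35.4, 44.9, 51.0 and 38.2 CPM in controls and 82.9, 67.1, 95.9 and 74.1 CPM in fusion livers. Here too every fusion liver lay above the controls, with a log2 fold change of 1.02 ± 0.18 (SE, with 0.00468 as the adjusted p of edgeR). Ugt2b1 was low, at 0.773, 0.558, 2.02, 2.01 and 1.48 CPM in controls and 7.42, 4.92, 4.22 and 2.94 CPM in fusion livers. Its log2 fold change was 1.77 ± 0.36 (SE, with 0.00929 as the adjusted p of edgeR), and all fusion livers were above all controls. Ugt2b36, Ugt2a3 and Ugt2b35 had log2 fold changes of 0.64, 0.50 and 0.46 and did not pass. Within each batch Ugt2b34, Ugt2b5, Ugt2b1 and Ugt2b35 passed.

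The Ugt1 locus gave the other direction at the gene of bilirubin glucuronidation. Ugt1a1 was at 1.13, 1.39, 9.12, 7.03 and 7.20 CPM in control 1 to 5 and 1.48, 1.36, 0.230 and 0.753 CPM in fusion 6 to 9. The 2 batch A controls were as low as the batch B fusion livers, so that the groups overlap overall but not within a batch. In batch A this rests on few counts, 19 and 10 in control 1 and 2 and 3 and 11 in fusion 8 and 9. The log2 fold change was -2.37 ± 0.64 (SE, with 0.0324 as the adjusted p of edgeR). It was -1.25 in batch A (edgeR adjusted p = 0.135) and -2.43 in batch B (edgeR adjusted p = 7.91e-05), and with Xist as a covariate it was -1.32 (edgeR adjusted p = 0.23). The call was lost in 6 of 9 fits that left out 1 liver: control 3, 4 or 5, or fusion 7, 8 or 9. Ugt1a6a and Ugt1a6b, whose enzymes act on small phenols, were at 0.205 to 2.05 CPM in all 9 livers, and their log2 fold changes of -0.99 and -0.83 did not pass.

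Ugt1a9 was nearly silent in controls, with 0, 1, 1, 3 and 0 counts in control 1 to 5. Fusion 6 had 223 counts, fusion 7 had 24, fusion 8 had 4 and fusion 9 had 1, or 4.65, 1.42, 0.307 and 0.0684 CPM. Fusion 6, 7 and 8 were thus above all controls, whose highest value was 0.139 CPM, and fusion 9 was among the controls. Fusion 8 rested on 4 counts. The gene fell under the filter on low counts and was not tested. Without that filter its fitted log2 fold change, which depends on the prior count, was 4.93 (edgeR adjusted p = 0.0163). Ugt1a9 starts upstream of every other Ugt1a gene measured here and shares its last exons with Ugt1a1, as described above.

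Ugt3a2, of a small family that uses other sugars than glucuronic acid, had the most negative fitted log2 fold change of the 34. With so few fusion counts its size depends on the prior count, and the gene met the count filter through the controls, where it was higher. It had 13, 16, 55, 68 and 79 counts in control 1 to 5 and 9, 0, 1 and 10 counts in fusion 6 to 9, or 0.773, 2.23, 2.59, 2.79 and 3.45 CPM against 0.188, 0, 0.0766 and 0.684 CPM. Control 1 and fusion 9 were close, and the groups did not overlap. The log2 fold change was -3.39 ± 0.65 (SE, with 0.00705 as the adjusted p of edgeR). It was -1.68 in batch A, with an edgeR adjusted p of 0.141, and -4.40 in batch B.

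**Figure D3:**
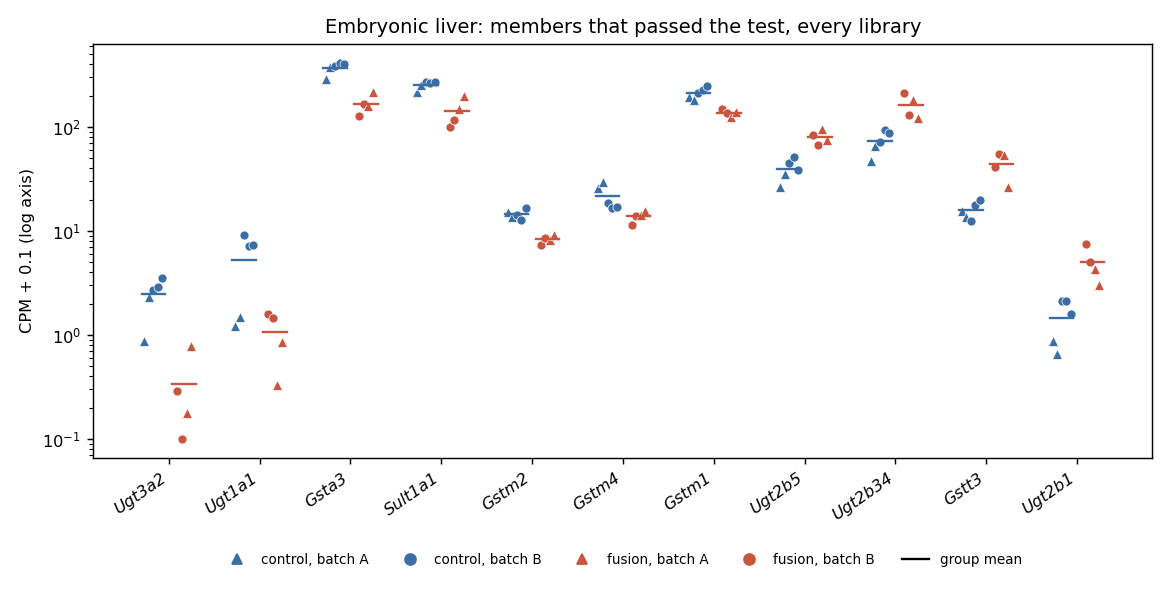
CPM plus 0.1 on a log axis (y) in each of the 5 control and 4 fusion livers for the 11 members that passed the test (x axis, ordered by log2 fold change); triangles are batch A, circles batch B, and lines are group means. Only Ugt1a1 overlaps between the groups, and its batch A controls lie near the fusion livers.

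Among the 11 members that passed, fusion 9 was the fusion liver nearest to the controls in 8, fusion 6 in 2 and fusion 7 in 1. All 11 had the same direction in both batches, as had 26 of the 31 members measured in both. Because the 11 were chosen in a fit of these same livers, this is no independent check. In batch B, moreover, genotype and sex cannot be told apart. Of the 11, 8 passed within each batch alone: Gsta3, Gstm1, Gstm2, Gstm4, Gstt3, Ugt2b1, Ugt2b34 and Ugt2b5. The shares of all genes called in these batch fits are not given here. Among the 8, Gstm4 did not pass with RLE size factors, with limma-voom or without the filter on low counts. In the fits that each left out 1 liver, 8 of the 11 passed every time, the exceptions being Gstm4, Sult1a1 and Ugt1a1. With the batch as a covariate 17 members passed, 7 higher and 10 lower. The 6 added were Gstp1, Ugt2b35 and Ugt2b36, which were higher, and Mgst1, Mgst2 and Ugt1a6a, which were lower. The share of all genes called in that fit is not given here, so the gain is not read as particular to these members.

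Levels were also divided by exonic length, taken over the merged exons of all annotated transcripts of a gene. This length can exceed that of the RNA present, so the order of genes depends on the annotation. In CPM alone Gsta3, with 4344 exonic bases, averaged 372 in control livers, above Mgst3, with 1097 bases, at 308. Per kb the order in control livers began with Mgst3 at 281 ± 72.6 CPM per kb, Sult1a1 at 169 ± 15.1, Gstm1 at 144 ± 17.3, Mgst1 at 138 ± 36.9 and Gstt1 at 131 ± 20.6 (SD, n = 5 each). The neighbours from Gstm1 to Gstt1 did not differ beyond their spread. In fusion livers the mean of Sult1a1 was 93.4, that of Gsta3 went from 85.7 to 38.4, and that of Ugt2b5 from 21.1 to 43.1 CPM per kb.

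Genes that supply, remove or control conjugation were described by lists, whose counts stand beside 5.99% of all genes higher, 6.81% lower and 12.8% in all. Of 4 genes of UDP-glucuronate supply and removal and of 6 of sulfate donor supply and removal, 0 passed in edgeR, with 1 and 2 at an unadjusted p under 0.05. Of 10 glutathione genes 2 rose and 1 fell. The risers were Cbs and Cth, the enzymes that pass sulfur from homocysteine to cysteine, from 141 ± 11.4 to 284 ± 53.0 CPM and from 63.5 ± 26.7 to 195 ± 50.3 CPM (SD, n = 5 and 4; log2 fold changes 1.01 and 1.62, edgeR adjusted p = 0.00167 and 0.00739), and the faller was the glutaredoxin Glrx (-0.47). Of 7 efflux pumps 2 fell, Abcc2, the canalicular exporter of bilirubin glucuronides, and Abcc6, each with a log2 fold change of -0.75 (edgeR adjusted p = 0.0282 and 0.04996).

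Of 12 regulators 3 fell and 0 rose. Nr1i3, which encodes CAR, was at 8.98, 11.6, 24.9, 18.4 and 12.1 CPM in control 1 to 5 and 2.25, 2.55, 2.53 and 5.13 CPM in fusion 6 to 9. These groups stood apart, with a log2 fold change of -2.32 ± 0.35 (SE, with 0.00216 as the adjusted p of edgeR). Nr1h4, the bile acid receptor FXR, and Cebpa, which encodes C/EBP alpha, had log2 fold changes of -0.66 and -0.65. Of 16 genes of the Nrf2 list 2 fell, a count near the share of all genes called: Ephx1, the microsomal epoxide hydrolase, at -1.64, and Osgin1 at -1.52, while the classical target Nqo1 had 0.23 (edgeR adjusted p = 0.597) and Nfe2l2, which encodes Nrf2, 0.52 (edgeR adjusted p = 0.0542). Of 10 other conjugating enzymes 1 rose and 2 fell. Nnmt, which methylates nicotinamide, had 6.60, Glyat, which conjugates glycine to acyl groups, -1.96, and Baat, which conjugates bile acids, -0.69. The list medians lay between -0.22 and 0.25.

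The second comparison asks how the enzymes differ in FL8 tumours after palbociclib. No member could be called different: 0 of 40 passed in limma, the same as 0% of 12829 genes, and the smallest adjusted p was 0.953. Members with an unadjusted p under 0.05 numbered 6, all higher after the drug, where 3.73% of all genes were higher and 0.842% lower at that limit. They were Ugt1a1, Ugt1a6b, Ugt1a5, Ugt3a2, Gstz1 and Mgst3. On the reads recovered from the CPM, edgeR gave 0 calls with 4 members at an unadjusted p under 0.05, beside 773 of 14367 genes. DESeq2 called 0 members, with 5 under that limit beside 919 of 14367 genes, and it called 7 of all genes. Tumour libraries held 2.96 M reads in vehicle 5 and 21.1 to 43.1 M in the others, and mitochondrial genes took 46.6% of the reads of vehicle 1 and 1.24% to 6.47% elsewhere.

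The vehicle tumours differed widely among themselves. Vehicle 5 was the highest vehicle tumour in 26 of the 40 members and vehicle 1 the lowest in 30, or in 17 when mitochondrial reads are left out of the total. The median log2 fold change of the 40, on the log2(CPM + 1) scale, was 0.33, against 0.14 over all genes, and 30 of 40 were positive, beside 68.8% of all genes. Without vehicle 5 these medians were 0.39 and 0.11, without vehicle 1 0.05 and 0.03, and with TMM scaling 0.19 and 0.01. The shift of all genes is thus part of each value below. Hepatocyte markers summed to 30998 to 90551 CPM in vehicle and 66775 to 99997 CPM in palbociclib tumours (6 of 7 measured), and erythroid markers to 309 to 48606 and 710 to 3215 CPM. Their part in the values was not tested.

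The 5 Ugt1 members of at least 1 CPM all had positive log2 fold changes. Ugt1a1 was at 3.07, 7.78, 7.27, 8.72 and 1.01 CPM in vehicle 1 to 5 and 10.2, 9.81, 14.7, 12.8 and 9.70 CPM in palbociclib 1 to 5. Every palbociclib tumour lay above every vehicle tumour, and vehicle 5, with the lowest value, rested on 3 reads. The log2 fold change was 1.12 ± 0.40 (SE; unadjusted p = 0.0121 in limma, adjusted p = 0.953), and 0.75 without vehicle 5. Ugt1a6b was at 3.69, 6.36, 7.20, 3.84 and 0.338 CPM in vehicle and 10.5, 8.41, 8.33, 10.2 and 8.13 CPM in palbociclib tumours. These groups did not overlap either, and vehicle 5 had 1 read (log2 fold change 1.16 ± 0.42, SE; limma adjusted p = 0.953), with 0.73 without vehicle 5. Ugt1a5 was at 0.266, 1.71, 2.20, 0.525 and 2.03 CPM in vehicle and 1.17, 5.61, 5.65, 3.29 and 3.62 CPM in palbociclib tumours. Palbociclib 1 lay inside the vehicle range (log2 fold change 1.04 ± 0.40, SE; limma adjusted p = 0.953). Ugt1a9 and Ugt1a6a had 0.71 and 0.45. As these genes share exons, their values are not independent.

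Of the Gst genes, Gstz1 was at 118, 294, 309, 275 and 229 CPM in vehicle 1 to 5 and 379.8, 330.3, 436, 335 and 320.1 CPM in palbociclib 1 to 5. The groups did not overlap, with vehicle 3 and palbociclib 5 closest. Its log2 fold change was 0.62 ± 0.27 (SE; limma adjusted p = 0.953), 0.38 without vehicle 1 and 0.48 when mitochondrial reads are left out. In all 3 of 40 members did not overlap between treatments, 7.5% beside 0.935% of all genes: Gstz1, Ugt1a1 and Ugt1a6b. The same 3 did not overlap when mitochondrial reads are left out, beside 0.884% of 13014 genes. Mgst3, with means of 75.5 ± 28.0 CPM in vehicle tumours and 111 ± 24.7 CPM after palbociclib (SD, n = 5 each), and Ugt3a2, at 35.8 ± 15.5 and 56.8 ± 6.50 CPM (SD, n = 5 each), had overlapping groups and log2 fold changes of 0.62 and 0.83, or 0.37 and 0.41 without vehicle 1.

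**Figure D4:**
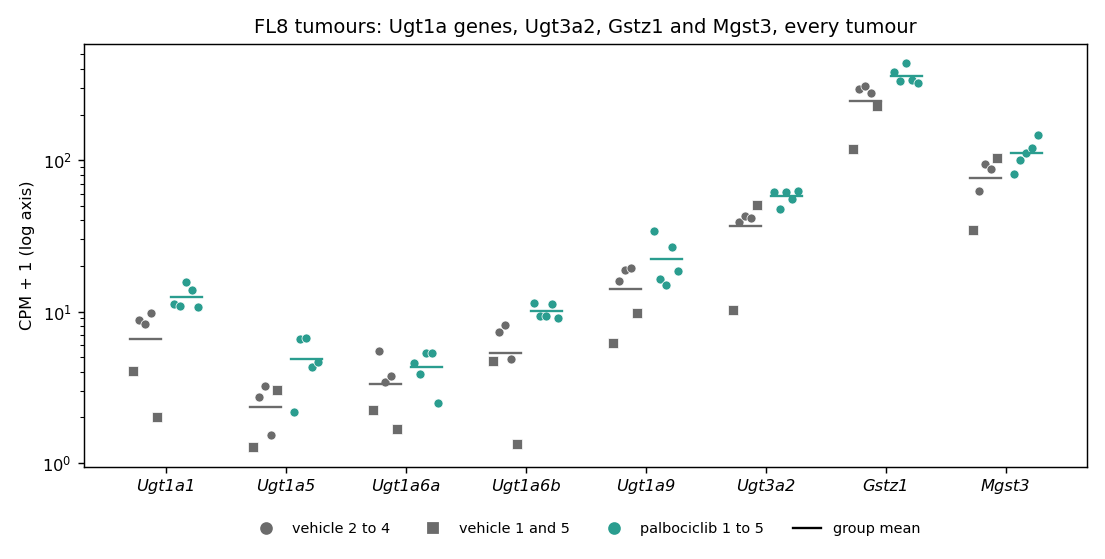
CPM plus 1 on a log axis (y) in each FL8 tumour for the 5 Ugt1a members, Ugt3a2, Gstz1 and Mgst3 (x axis); squares are vehicle 1 and vehicle 5, and lines are group means. In Ugt1a1, Ugt1a6b and Gstz1 the 5 palbociclib tumours lie above all 5 vehicle tumours, and vehicle 1 or vehicle 5 is the lowest vehicle tumour in each gene.

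The smallest p-values among lower values belonged to Mgst2, Ugt2b1 and Gstm5. Mgst2, which makes glutathione conjugates of leukotrienes, was at 3.13, 6.12, 6.91, 1.90 and 5.08 CPM in vehicle and 4.39, 4.52, 3.24, 1.81 and 1.61 CPM in palbociclib tumours (log2 fold change -0.43; limma adjusted p = 0.953). Ugt2b1 was at 3.01, 3.61, 5.53, 2.95 and 6.77 CPM in vehicle and 4.74, 3.27, 3.43, 2.87 and 2.05 CPM in palbociclib tumours (-0.31; limma adjusted p = 0.953). Gstm5 was at 7.03, 10.7, 12.0, 5.29 and 11.2 CPM in vehicle and 7.68, 9.21, 8.25, 7.39 and 4.51 CPM in palbociclib tumours (-0.26; limma adjusted p = 0.957). All 3 overlapped widely.

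The most abundant members of the tumours per kb of exon spread widely within a treatment. Gstm1 was at 1206, 2216, 2956, 1994 and 3846 CPM in vehicle and 2635, 2173, 2141, 1975 and 3959.8 CPM in palbociclib tumours. Gsta3 was at 490.3, 778, 1169.6, 764 and 2019 CPM in vehicle and 1437, 1165, 1517, 1239 and 1529.9 CPM in palbociclib tumours. Gstp1 was at 608, 876, 1013, 857 and 1612 CPM in vehicle and 804, 837, 847, 848 and 947 CPM in palbociclib tumours. In these 3 genes the palbociclib values lay within the vehicle range except for palbociclib 5 in Gstm1, and log2 fold changes were 0.13, 0.56 and -0.14. Mgst1 was at 276, 604, 898, 981 and 1927 CPM in vehicle and 1543, 882, 1101, 754 and 1228 CPM in palbociclib tumours (0.46). Gsta4 was at 126, 163, 248, 194 and 404 CPM in vehicle and 247, 185, 229, 171 and 339 CPM in palbociclib tumours (0.12). Both overlapped, with vehicle 5 the highest tumour.

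The other classes also overlapped between treatments. Gstt1 was at 76.7, 179, 211, 163 and 218 CPM in vehicle and 162, 219.96, 146, 197 and 216 CPM in palbociclib tumours (log2 fold change 0.22). Gsto1 was at 30.2, 7.73, 23.4, 19.3 and 23.01 CPM in vehicle and 14.7, 21.5, 20.3, 22.5 and 27.7 CPM in palbociclib tumours (0.13). Gstk1 was at 10.4, 8.30, 12.6, 18.5 and 26.4 CPM in vehicle and 13.8, 16.3, 29.7, 18.2 and 15.1 CPM in palbociclib tumours (0.33). Single tumours set the ends of these ranges, vehicle 1 in Gstt1 and palbociclib 3 in Gstk1. Sult1a1 was at 131, 243, 213, 297 and 225 CPM in vehicle and 158, 263, 263, 339 and 232 CPM in palbociclib tumours (0.18). Sult1b1 was at 1.71, 5.31, 6.67, 2.34 and 1.35 CPM in vehicle and 5.34, 3.82, 3.40, 5.19 and 5.39 CPM in palbociclib tumours (0.47). Ugt2b34 was at 85.8, 198, 213, 183 and 304 CPM in vehicle and 298, 113, 254, 148 and 189.8 CPM in palbociclib tumours (0.05). In limma the adjusted p of all 6 genes was at least 0.953.

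The 18 remaining tumour members had log2 fold changes of -0.32 (Sult2b1) to 0.65 (Gstm7) and passed no limit. The 9 symbols under a mean of 1 CPM were Gsto2, Sult2a8, Sult3a2, Sult4a1, Sult5a1, Sult6b1, Ugt1a7c, Ugt2b38 and Ugt3a1. Of the lists of genes that supply, remove or control conjugation, 0 genes passed in limma in the tumours, with 3 at an unadjusted p under 0.05, 1 of sulfate donor supply and removal and 2 of the other conjugating enzymes.

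The embryo and tumour tables were normalized separately and their levels are set side by side here without a test. Members that were scarce in control livers and abundant in vehicle tumours included Gstp2, at 0.726 ± 0.399 CPM (SD, n = 5) and 193 ± 68.7 CPM (SD, n = 5), and Gstm3, at 2.20 ± 0.73 and 215 ± 132 CPM (SD, n = 5 each). Ugt2b36 was at 8.14 ± 2.98 and 235 ± 209 CPM, Ugt3a2 at 2.37 ± 0.99 and 35.8 ± 15.5 CPM, and Ugt1a9 at 0.0619 ± 0.0665 and 13.01 ± 5.80 CPM (SD, n = 5 each). Others were higher in control livers: Gstm5 was at 97.0 ± 17.9 and 9.23 ± 2.91 CPM, Mgst2 at 31.8 ± 9.16 and 4.63 ± 2.08 CPM, and Gstt3 at 15.7 ± 3.02 and 2.56 ± 3.12 CPM (SD, n = 5 each). Per kb, the vehicle tumours were led by Gstm1 at 1660 ± 680 CPM per kb, Gstp1 at 642 ± 243 and Mgst1 at 465 ± 307 (SD, n = 5 each), where Gstp1 and Mgst1 did not differ beyond their spread.

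**Figure D5:**
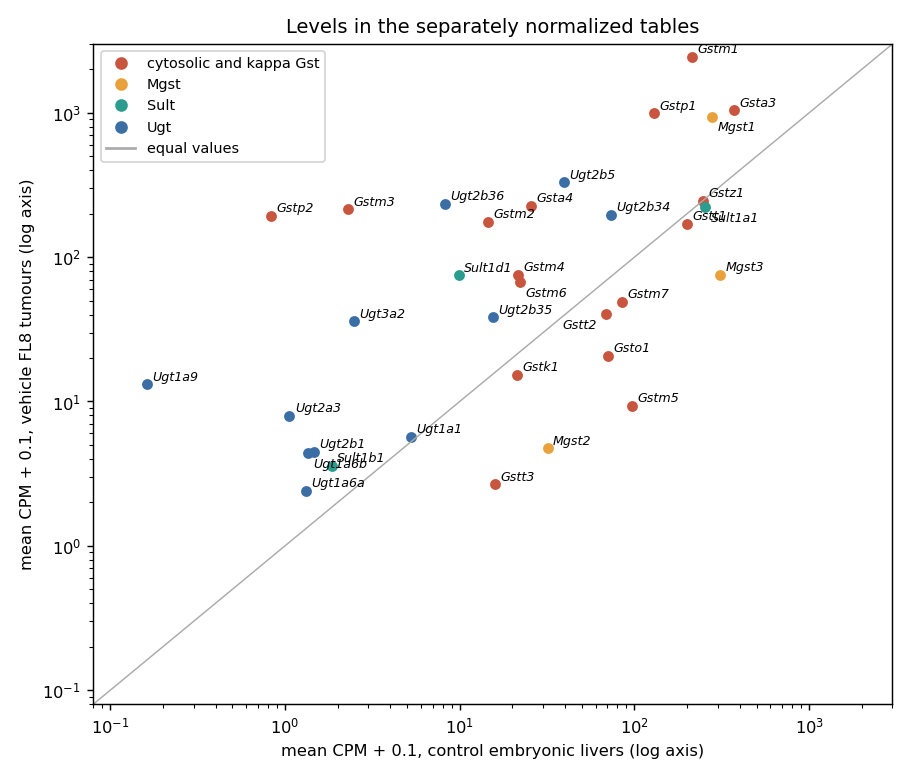
Mean CPM plus 0.1 on log axes in control embryonic livers (x, n = 5) and vehicle FL8 tumours (y, n = 5) for the 34 members in both tables; the line marks equal values. Gstp2, Gstm3 and Ugt1a9, which share sequence with other genes, lie far above the line and Gstm5, Gstt3 and Mgst2 below it.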

How the data were processed

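The members and the gene lists were chosen with earlier results of these data known. The authors deposited raw counts per gene symbol for the poly-A enriched embryo livers and CPM per Ensembl gene for the tumours, per the file headers. The submitters' processing notes name STAR 2.5.1b and DESeq2 for the embryos, and cutadapt 2.10, HISAT2, featureCounts, DESeq2 and R 4.1.2 for the tumours, with the mm10 build for both. Their roles, the annotation, strand and the treatment of multimapping reads are not given in the sources used here. The embryo table, whose lowest gene sum is 47 counts, also holds 9 columns of rescaled values that were not used. All tumour CPM values (100%) were whole multiples of 1 read within 0.001, and reads were recovered from them.

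Embryo counts were tested with edgeR 4.0.16 (quasi-likelihood, TMM factors, filterByExpr) under R 4.3.3, fusion against control, and their CPM are TMM-scaled. Tumours were tested with limma 3.58.1 (trend) on log2(CPM + 1), keeping genes that averaged 1 CPM or more. This scale understates changes of low genes. P-values were adjusted by Benjamini-Hochberg over all genes tested, with a threshold of 0.05. Both fits were run on simulated data with large changes in well-counted genes and the same spread for all genes. Those data do not show what either fit finds at smaller changes or at the spread of the vehicle tumours. Depth was 7.66 to 45.6 M counts and 2.96 to 43.1 M reads per library, and no pair of libraries agreed within sampling noise (chi-square per degree of freedom at least 12.5 and 48.9). Intervals are not given. Precision at low genes is limited by counting error as well as by the spread between livers or tumours. Embryo batches are the sides of the widest gap in the share of 81 ribosomal protein genes.

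Values in every library are given for members past the threshold, for the 3 members with the smallest p in each direction where none passed, and for a set of members fixed by name. Of each list up to 3 genes past the threshold in each direction are named. Ugt1a9, Mgst2, Mgst3, Ugt3a2 in the tumours, Nqo1, Nfe2l2 and members named for a range or a level were chosen after their values were seen. Alternatives were other size factors, tests, filters, pseudocounts, covariates, batches, a replicate block and each library left out.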

Additional observations from a re-analysis of the deposited data

Results flagged for a closer look

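Of 78 groups of values screened for a single library far from the rest of its group, 2 held such a library, where chance flags about 1 in 20 groups, or 4. Gstk1 was at 29.7 CPM in palbociclib 3 and at 13.8 to 18.2 CPM in the other 4 palbociclib tumours. Sult2a8 was at 2.71 CPM in vehicle 5, which is 8 reads in the library of least depth, and at 0.162 to 0.709 CPM in the other 4 vehicle tumours.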

How the results depend on the processing

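In embryos the 4 higher and 7 lower members became 7 and 10 (17 in all) with the library batch as a covariate, 7 and 12 (19) in batch B alone, where genotype and sex cannot be told apart, and 4 and 3 (7) with a log2 fold change of at least 1. Calls over all genes also differ between fits, and their shares under these settings are not given here. The gain is therefore not read as particular to the members, and its cause was not tested. Other settings gave 8 to 12 calls. Fits that left out 1 liver gave 8 to 11, with 4 higher and 4 to 7 lower, where 969 to 1581 of all genes passed. Of 167 values of named embryo members under other settings 152 kept their direction and side of the threshold. The reversed ones were Gsta4 in batch A (0.032) and Gstk1 and Gstt1 in batch B (-0.0016 and 0.063).

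In the tumours 0 members passed under any setting run, and the counts left 0 to 0 when single tumours were left out. Directions of small values turned with the scaling. With TMM factors, edgeR, DESeq2 and without mitochondrial reads the log2 fold changes were -0.028, -0.10, -0.12 and -0.026 for Gsta4, -0.017, -0.052, -0.071 and -0.015 for Gstm1, -0.016, -0.23, -0.25 and -0.014 for Gsto1, and -0.10, -0.10, -0.11 and -0.10 for Ugt2b34. Leaving out single tumours gave -0.061 to 0.36 for Gsta4, -0.096 to 0.32 for Gstm1 and -0.042 to 0.33 for Gstt1 (lowest without vehicle 1 and highest without vehicle 5), -0.17 to 0.29 for Gsto1 (without vehicle 2 and 1), -0.30 to 0.052 for Gstp1 (without vehicle 1 and 5), and -0.22 to 0.23 for Ugt2b34 (without vehicle 1 and palbociclib 2). These members had called differences in no setting.

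Embryo numbers run from 1 to 9 without repeats, so no paired fit was made there. Tumours share numbers 1 to 5 in both treatments, but deviations of same-numbered tumours correlated at -0.317 to 0.00223, so the numbers did not pair them. With the replicate block 0 members passed and 5 had an unadjusted p under 0.05, against 6 without it. Of 12829 genes 460 were under that limit with the block and 586 without it. Depth limits low members most in vehicle 5, where 3 reads are 1.01 CPM. In the embryos the 3 members under the filter on low counts were not tested in the main comparison. Without that filter the edgeR adjusted p was 0.0163 for Ugt1a9, 0.184 for Sult2a1 and 0.152 for Sult2a8. All 3 passed in batch B alone, where genotype and sex cannot be told apart.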

Other observations

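Summed over the members of a family, embryo levels gave the following ranges, as values without a test. Gsta RNA was at 313 to 443 CPM in control and 150.0 to 241 CPM in fusion livers, and Sult RNA at 224 to 292 and 117 to 212 CPM. Mgst RNA was at 568 to 642 and 438 to 555 CPM, with no overlap although 0 of its 3 members passed in edgeR (2 at an unadjusted p under 0.05). Gstm RNA was at 396 to 505 and 363 to 418 CPM, Gstt RNA at 254 to 321 and 247 to 344 CPM, and Gstp RNA at 105 to 151 and 139 to 194 CPM, all overlapping. In the tumours Ugt1 RNA summed to 12.9 to 37.1 CPM in vehicle and 40.8 to 59.8 CPM in palbociclib tumours. Gstz, whose only member is Gstz1, was at 118 to 309 and 320.1 to 436 CPM, also without overlap. The other families overlapped there, among them Gsta with 628 to 2517 and 1371 to 1928 CPM, and Ugt2 with 225 to 1805 and 475 to 1281 CPM.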
